A study of Mus musculus with 8 samples.

Results

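Metabotropic glutamate receptors and their Homer scaffolds were examined in RNA from whole mouse cerebellum. The set holds 8 genes chosen by name from the deposited count table: the receptor genes Grm2, Grm3, Grm4, Grm5 and Grm7 and the scaffold genes Homer1, Homer2 and Homer3. All 8 had a row among the 24060 rows of the table, and all 8 passed the filter on low counts, which left 15186 genes. The 4 bigenic mice carried the CalExflox allele together with Aldh1l1-Cre/ERT2, a Cre recombinase that tamoxifen activates and that the Aldh1l1 promoter directs to astrocytes. The 4 control mice carried CalExflox alone. CalEx is a calcium pump of the plasma membrane that exports calcium from the cell. Both groups received 1 dose of tamoxifen at 75 mg/kg, and tissue was taken 5 days later. Strain background, age and sex are not given in the sources used here. Only the bigenic mice had Cre, so the pump and Cre itself cannot be told apart.

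Metabotropic glutamate receptors are G protein-coupled receptors that fall into 3 groups. Group I, to which Grm5 belongs, couples to Gq and releases calcium from internal stores through phospholipase C and inositol trisphosphate. Group II (Grm2, Grm3) and group III (Grm4, Grm6, Grm7, Grm8) couple to Gi/o and lower cyclic AMP, and many of them sit on presynaptic terminals. Homer proteins bind a proline-rich motif of group I receptors, of the inositol trisphosphate receptor and of Shank, and so hold the receptor near its calcium store. In the cerebellum Homer3 is known from Purkinje cells, Grm4 from the parallel fibre terminals of granule cells, Grm2 from Golgi cells, and Grm3 from astrocytes and Golgi cells.

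Counted reads per library ranged from 35208460 to 38293012. Levels of 1 gene are given below as CPM, which is reads scaled to a common library size by the TMM method, and levels of different genes are compared as the deposited FPKM, which also divides by gene length. The label of the tissue was checked against markers: the summed level of 8 Purkinje cell markers was 2978 to 3648 CPM in bigenic and 2773 to 3089 CPM in control libraries, and that of 8 granule cell markers 5666 to 7458 and 5712 to 6981 CPM. Astrocyte and Bergmann glia markers summed to 5141 to 5822 CPM in bigenic and 4701 to 5125 CPM in control libraries. The choroid plexus gene Ttr measured 300.2, 2360, 2961 and 2.76 CPM in the controls, in the order of their numbers, and 2.25 to 4.62 CPM in bigenic mice. Control libraries 2 and 3 stand furthest apart, and results that change without them are given both ways. Leaving them out keeps control library 1, where the summed level of 8 choroid plexus markers was 658 CPM, against 162 to 231 CPM in bigenic mice. In control library 4 the sum was 293 CPM, with Enpp2 at 70.6 FPKM against 30.2 to 45.9 FPKM in bigenic libraries. Kl and Otx2 of control library 4 also lay above every bigenic library in FPKM. Its Ttr, Folr1, Clic6, Kcnj13 and Aqp1 did not, so an excess of choroid plexus in that library is not clear. The part of these transcripts in the results below was not tested.

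The difference between the groups covered much of the transcriptome: 44.3% of the 15186 genes tested passed an adjusted p under 0.05, with 21.4% higher and 22.9% lower in bigenic tissue. This share is the background for every count that follows. Of the 8 genes, 1 was higher (Homer2), 2 were lower (Grm3 and Grm7) and 5 did not pass the test. At 37.5%, the share of the 8 genes that passed was near the background, so the number of changed genes is not a result about this family. What the data give is which receptor or scaffold moved, how far and how evenly over the mice. The median log2 fold change of the 8 genes was -0.16, against -0.0041 over all genes tested.

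The alternatives changed this background. Of all genes tested, edgeR called 44.4% with DESeq2 size factors (22.2% higher, 22.3% lower), 44.4% with upper-quartile factors and 44.8% with library size alone, where the split moved to 16% higher and 28.8% lower. DESeq2 called 47.2% (23.5% higher, 23.6% lower), limma-voom 44.4% (21.3% and 23.1%) and the fit with the replicate number as a block 49% (24% and 25%). On log2(FPKM + 1) limma called 44.3% (15.6% and 28.7%), on log2(FPKM + 0.1) 44.4% and on log2(FPKM + 1) with no filter 28.4%, and edgeR with no filter called 29.4%. With Ttr as a covariate 19.3% were called, and without control libraries 2 and 3 21.9%. Leaving out bigenic library 1, 2, 3 or 4 left 38.9%, 48.3%, 41.1% and 36.4% called. Leaving out control library 1, 2, 3 or 4 left 42.2%, 34.5%, 36.6% and 37.8%, the last with 18.1% higher and 19.7% lower. Groups that did not overlap in CPM made up 40.7% of all genes.

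Reference promoters are shown for the scaffold that rose and for the receptor of the 8-gene set with the smaller adjusted p of the 2 that fell, since a reader may wish to scan them. They are from RefSeq on GRCm38.p6, which held 9 promoters for 6 of the 8 genes. Each window runs from 250 bases before to 50 bases after the transcription start, 5′ to 3′ on the strand of the gene. Homer2 has 2 listed starts, chr7:81706876-81707175 and chr7:81692916-81693215, both on the minus strand, and Grm3 has 1, chr5:9725303-9725602, also on the minus strand. Capitals mark matches to 6 motifs searched on both strands.
Homer2, upstream start: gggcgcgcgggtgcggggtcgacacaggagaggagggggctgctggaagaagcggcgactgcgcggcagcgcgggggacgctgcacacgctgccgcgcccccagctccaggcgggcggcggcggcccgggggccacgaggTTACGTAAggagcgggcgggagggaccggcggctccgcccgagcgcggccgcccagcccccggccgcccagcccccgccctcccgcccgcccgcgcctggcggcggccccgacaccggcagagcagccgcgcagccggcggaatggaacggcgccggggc
Homer2, downstream start: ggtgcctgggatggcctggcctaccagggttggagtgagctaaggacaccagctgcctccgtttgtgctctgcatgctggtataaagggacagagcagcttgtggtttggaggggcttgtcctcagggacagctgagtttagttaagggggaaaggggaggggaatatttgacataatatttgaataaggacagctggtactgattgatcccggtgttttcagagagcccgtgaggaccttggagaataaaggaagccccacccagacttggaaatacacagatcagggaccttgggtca
Grm3: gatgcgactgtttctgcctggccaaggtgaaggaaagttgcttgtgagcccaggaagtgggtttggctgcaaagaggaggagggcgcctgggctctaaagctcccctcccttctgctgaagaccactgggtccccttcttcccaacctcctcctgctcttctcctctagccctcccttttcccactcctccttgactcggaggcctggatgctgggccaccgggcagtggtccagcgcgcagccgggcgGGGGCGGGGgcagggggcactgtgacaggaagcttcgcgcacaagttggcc

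The upstream Homer2 promoter holds the palindrome TTACGTAA, a sequence bound by PAR bZIP factors, with its first base at -110 from the start. That motif was added to the search after this promoter had been read. It occurs in 39 of the 32851 promoters in the table, or 0.119%. The GC box GGGGCGGGG, which Sp1 can bind, lies at -1 in the Grm3 window and at -112 and -30 in the Grm2 window, and it is found in 11.4% of all promoters. The D-box TTATGTAA (0.938% of all promoters), the cAMP response element TGACGTCA (1.79%), the glucocorticoid response element (0.475%) and the clock E-box CACGTG (7.15%) were found in none of the 9 windows. The motifs searched do not overlap one another in the windows shown. The upstream Homer2 window is 82.3% GC and the downstream one 52.3%, against a median of 52.7% over the table. A match here describes letters in a window and shows no binding.

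Homer2 was the one scaffold gene that passed the test, and it rose. Its protein, like those of the other Homer genes, has an EVH1 domain that binds the receptors and a coiled coil that joins Homer proteins to each other. Homer2 (chromosome 7, 81600481 to 81707527, minus strand, mm10) gave 26.8, 29.2, 26.3 and 26.7 CPM in the 4 bigenic mice. The 4 controls gave 15.3, 16.9, 14.5 and 16.99 CPM. The lowest bigenic library lay well above the highest control library, and the spread within each group was small. The means were 27.2 ± 1.31 and 15.9 ± 1.24 CPM (SD, n = 4), a 1.71-fold difference. On the log2 scale that was 0.77 ± 0.09 (SE; edgeR quasi-likelihood test, adjusted p = 7.9e-05). Bigenic values lay wholly above control values for 19.4% of all genes tested. The rise was called under each of the 20 alternative settings, with log2 fold changes from 0.45 on log2(FPKM + 1) to 0.80. Without control libraries 2 and 3 it was 0.75 (adjusted p = 0.0045). In bulk tissue, more cells of a type and more RNA per cell cannot be told apart, and this holds for every gene here. Exons of Homer2 overlap the opposite-strand gene Gm44570, and the sources used here do not say whether counting used strand.

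Homer1 was not called, and its values in the groups lay close together. It encodes long forms with a coiled coil and a short form, Homer1a, that neuronal activity induces and that lacks it. Counts per gene do not separate them. Homer1 (chromosome 13, 93299635 to 93405129, plus strand) gave 84.95, 86.5, 87.3 and 82.0 CPM in the bigenic mice and 86.6, 86.6, 84.0 and 87.6 CPM in the controls. The 2 sets of values overlapped, at 82.0 to 87.3 CPM in bigenic and 84.0 to 87.6 CPM in control libraries. The log2 fold change was -0.02 with a 95% interval from -0.15 to 0.12 (adjusted p = 0.84). The FPKM values, which lack TMM scaling, were 13.6 to 14.1 in bigenic and 14.3 to 15.5 in control libraries and did not overlap, but the test on log2(FPKM + 1) did not call the gene (limma, adjusted p = 0.22).

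Homer3, the Homer of Purkinje cell spines, was near the threshold. Homer3 (chromosome 8, 70282827 to 70294361, plus strand, with exons opposite Ddx49) gave 426, 384, 363 and 391 CPM in the bigenic mice and 387, 337, 314 and 287 CPM in the controls. Bigenic libraries 2 and 3 lay below control library 1, so the groups overlapped. The log2 fold change was 0.24 ± 0.09 (SE; adjusted p = 0.057). None of the 8 Purkinje cell markers passed the test, beside 44.3% of all genes, and their median log2 fold change was 0.13.

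**Figure D1:**
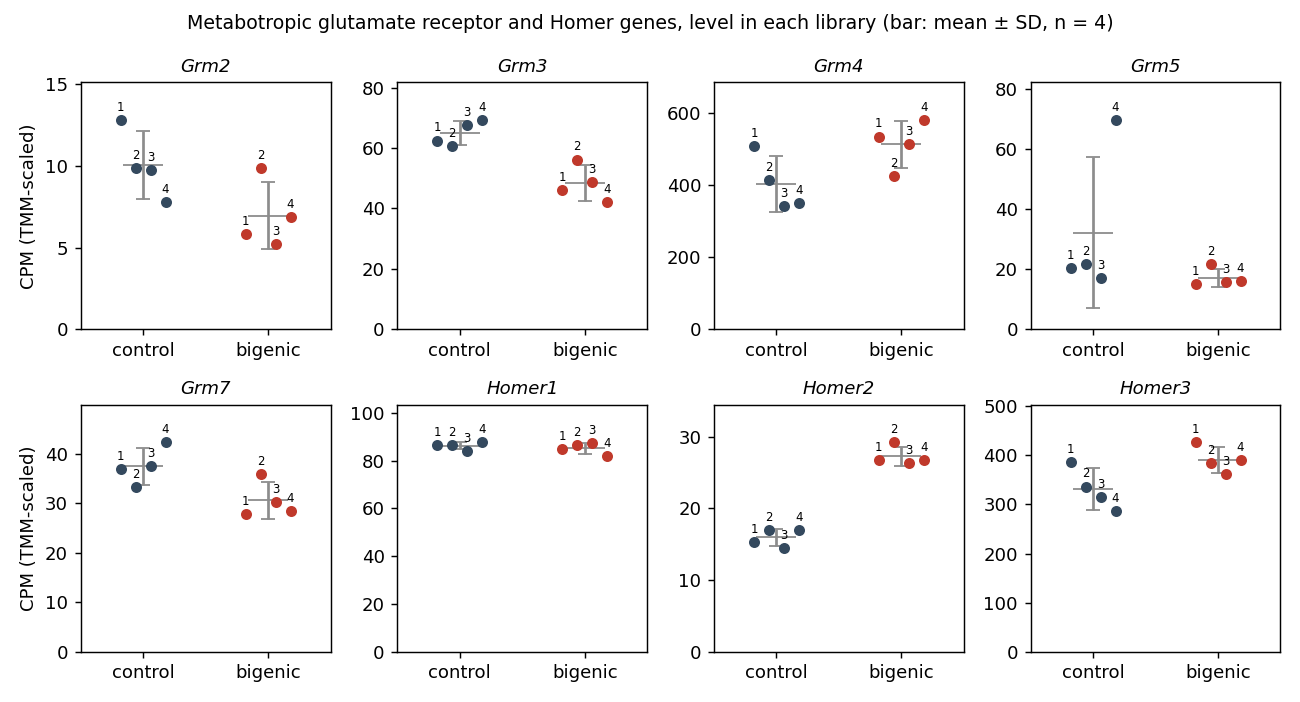
Level of each of the 8 genes in every library, in TMM-scaled CPM on axes that start at 0; numbers are the replicate numbers and bars the mean ± SD of 4 libraries. Homer2 and Grm3 separate the groups, Homer1 stays between 82.0 and 87.6 CPM, and the Grm5 mean of the controls is set by control library 4 at 69.6 CPM.

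Grm3, the group II receptor of astrocytes and Golgi cells, was lower in bigenic cerebellum. Grm3 (chromosome 5, 9485541 to 9725170, minus strand) gave 46.2, 56.2, 48.7 and 42.2 CPM in the 4 bigenic mice. The controls held 62.5, 60.8, 67.5 and 69.3 CPM. Every bigenic value lay below every control value, with bigenic library 2 nearest. The means were 48.3 ± 5.88 and 65.0 ± 4.03 CPM (SD, n = 4), and on the log2 scale the difference was -0.43 ± 0.09 (SE; adjusted p = 0.0035). Bigenic values lay wholly below control values for 21.4% of all genes. Grm3 was called under each of the 20 alternatives, with log2 fold changes from -0.52 to -0.37. The astrocyte markers moved in both directions, with 5 of 9 higher and 2 lower (55.6% and 22.2%, beside 21.4% and 22.9% of all genes). On the log2 scale Gjb6 was higher at 1.23, Gdf10 at 0.97, Fgfr3 at 0.93, Aldh1l1 at 0.48 and Slc1a2 at 0.25. Aqp4, the water channel of endfeet, was lower at -0.48 and Hopx at -0.32. The Aldh1l1 promoter also drives the Cre that only bigenic mice carried, and any effect of it on Aldh1l1 reads was not tested.

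Grm2, the group II receptor that marks Golgi cells, did not pass the test in the chosen fit. Grm2 (chromosome 9, 106643095 to 106656082, minus strand, with exons opposite Gm28111) gave 5.82, 9.85, 5.21 and 6.90 CPM in the bigenic mice and 12.8, 9.90, 9.76 and 7.80 CPM in the controls. Bigenic library 2 lay among the controls, and the other 3 bigenic libraries lay below all of them. The log2 fold change was -0.53 ± 0.20 (SE; adjusted p = 0.052). Without bigenic library 2 it was -0.75 (adjusted p = 0.0050), the smallest adjusted p among the 20 alternatives. The largest was 0.48, with Ttr as a covariate. Of the 20 alternatives 9 called Grm2 and 11 did not. Of the 8 markers of Golgi cells and other interneurons, 2 were higher, Lgi2 at 0.46 and Pvalb at 0.27, and 0 were lower. Those shares, 25% and 0%, stand beside 21.4% and 22.9% of all genes. Unipolar brush cell markers summed to 33.2 to 44.8 CPM in bigenic and 43.996 to 79.4 CPM in control libraries. Of 4 tested, 2 were lower (50%, beside 22.9% of all genes), Eomes and Otx2. Otx2 is also among the choroid plexus markers, and its counts were highest in control libraries 2 and 3, at 1142 and 1102. The marker sum is therefore not particular to unipolar brush cells, and the part of these cells in the Grm2 values was not tested.

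**Figure D2:**
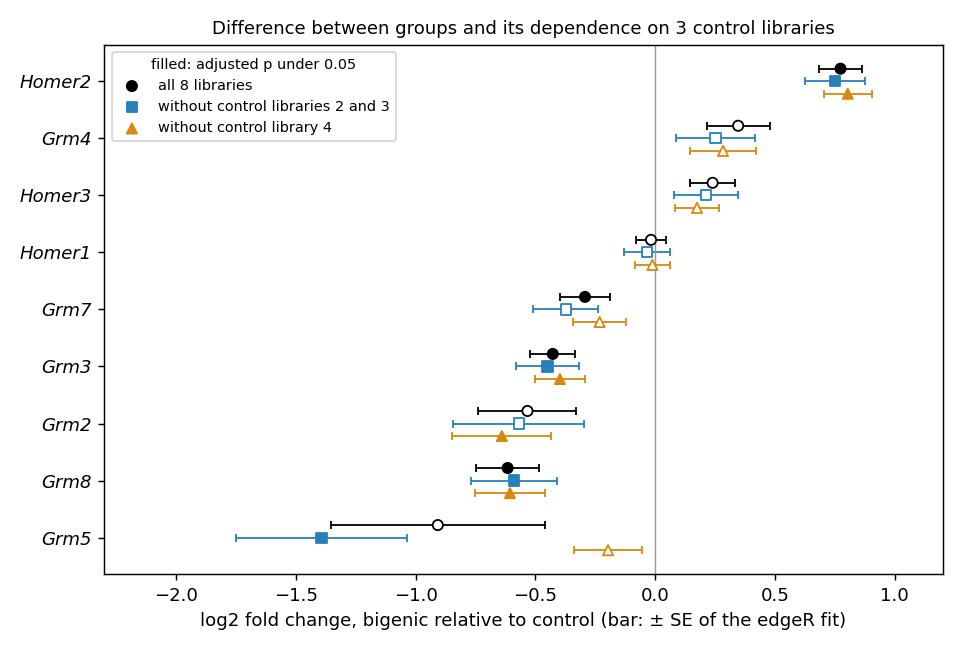
Log2 fold change of bigenic relative to control with its SE for the 8 genes and for Grm8, in the fit on 8 libraries (circles), without control libraries 2 and 3 (squares) and without control library 4 (triangles); filled symbols have an adjusted p under 0.05. Homer2, Grm3 and Grm8 are filled in all 3 fits, and Grm5 moves from -1.39 to -0.20.

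Of the group III receptors, Grm7 was lower and Grm4 was not called. Grm7, a receptor with low affinity for glutamate in presynaptic active zones (chromosome 6, 110645581 to 111567230, plus strand, with exons opposite Gm20387), gave 27.8, 35.9, 30.2 and 28.3 CPM in the bigenic mice and 36.8, 33.2, 37.5 and 42.2 CPM in the controls. Bigenic library 2 exceeded control library 2, so the groups overlapped. The log2 fold change was -0.29 ± 0.10 (SE; adjusted p = 0.039). This call did not hold without control libraries 2 and 3 (adjusted p = 0.074). It was also lost when any 1 of bigenic library 1, 3 or 4 or control library 1, 3 or 4 was left out, with adjusted p between 0.059 and 0.12 and a log2 fold change of -0.23 without control library 4.

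Grm4 is the receptor through which glutamate damps its own release at parallel fibre synapses. Grm4 (chromosome 17, 27422387 to 27521403, minus strand) gave 535, 425, 514 and 581 CPM in the bigenic mice and 509, 414, 341 and 351 CPM in the controls. Control library 1 lay above bigenic library 2, and the groups overlapped. The log2 fold change was 0.35 ± 0.13 (SE; adjusted p = 0.051). Of 8 granule cell markers 2 were lower, Gabra6, a GABA-A receptor subunit of granule cells, at -0.55 and the transcription factor Neurod1 at -0.33 on the log2 scale. Cbln3 was higher, at 0.39, and 5 were not called. The shares, 25% lower and 12.5% higher, stand beside 22.9% and 21.4% of all genes.

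Grm2, Grm4 and Homer3 all lay just outside the threshold, with adjusted p between 0.051 and 0.057. With DESeq2, limma-voom or the replicate number as a block all 3 were called, and with DESeq2 size factors in edgeR Grm4 (adjusted p = 0.046) and Homer3 (0.048) were called. Scaling by library size alone called Grm2 (0.030) and neither Grm4 (0.13) nor Homer3 (0.20). These calls therefore depend on scaling and tool, and the direction of each gene did not change under any of the 20 alternatives.

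Grm5, a group I receptor, was not called, and its values turned on 1 library. Grm5 (chromosome 7, 87584168 to 88134907, plus strand) gave 15.0, 21.6, 15.8 and 16.1 CPM in the 4 bigenic mice. The controls gave 20.3, 21.6, 16.99 and, in control library 4, 69.6 CPM. Control library 4 was 3.23 times the next highest library, while the other 3 controls lay among the bigenic values or just above them. The log2 fold change was -0.91 ± 0.45 (SE) with a 95% interval from -1.93 to 0.12 (adjusted p = 0.13). Without control library 4 it was -0.20 (adjusted p = 0.30). Of the 20 alternatives 2 called Grm5, namely the fit without control libraries 2 and 3 (-1.39, adjusted p = 0.023) and that with Ttr as a covariate (-1.92, adjusted p = 0.00057).

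Control library 4 stood apart for other genes as well. It held more than 2 times the level of every other library for 117 genes, against 0 to 10 genes for each of the other 7 libraries. The 3 protein-coding genes closest to Grm5 over the 8 libraries, by root mean square difference of centred log2 CPM, were Gng4, a G protein gamma subunit (0.20), Lrrc7, the postsynaptic protein densin-180 (0.22), and Col25a1, a membrane collagen (0.24). This comparison was added for Grm5 after its values had been seen. Being chosen by likeness to Grm5 over these same libraries, the 3 genes peak in control library 4 by that choice. In control library 4 they were at 8.87, 10.3 and 13.3 CPM, and their highest values elsewhere were 3.95, 5.14 and 6.15 CPM. Rgs4, a GTPase activator that limits Gq and Gi signals, was at 35.3 CPM in control library 4 and between 15.3 and 22.5 CPM in the other 7. What tissue or state these genes mark was not tested.

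**Figure D3:**
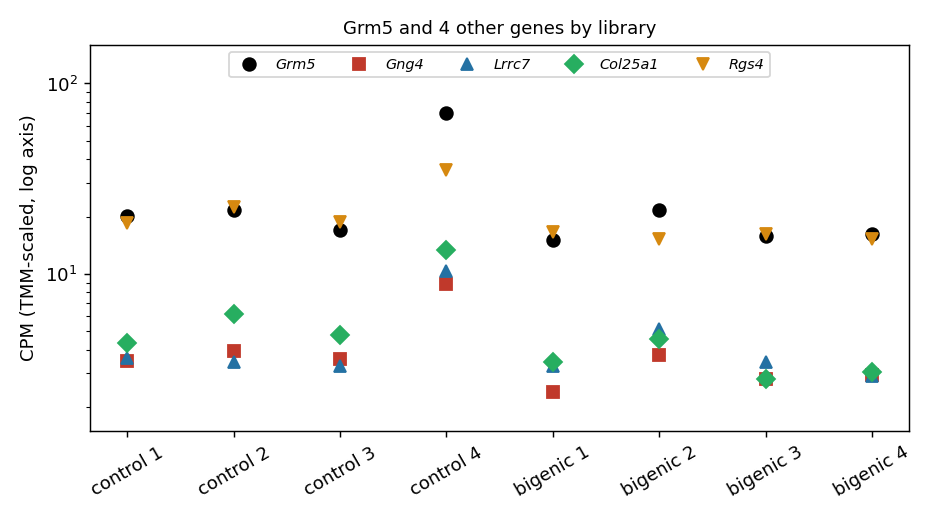
TMM-scaled CPM on a log axis, 1 point per library, for Grm5, the 3 genes with the most similar profile (Gng4, Lrrc7, Col25a1) and Rgs4. All 5 genes are highest in control library 4, where Grm5 reaches 69.6 CPM. For the 3 similar genes this follows from their choice over these same libraries.

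Of the receptor genes outside the set, Grm8 was lower. Grm8, a group III receptor (chromosome 6, 27275119 to 28135178, minus strand), gave 9.10, 13.5, 11.7 and 9.40 CPM in the bigenic mice and 15.6, 17.9, 16.2 and 17.1 CPM in the controls. The groups did not overlap, and the log2 difference was -0.62 ± 0.13 (SE) with an adjusted p of 0.0029. The call held under all 20 alternatives. Grm6, the receptor of retinal bipolar cells, had between 0 and 3 counts per library and was not tested.

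Per length, 2 genes stood far above the others. In control libraries Homer3 was at 123 to 163 FPKM and Grm4 at 78.8 to 119.6 FPKM. In bigenic libraries they were at 141 to 171 and 93.9 to 130 FPKM. Homer3 was above Grm4 in both groups, without overlap within a group. Below them came Grm3 (17.7 to 20.5 FPKM in controls, 11.7 to 15.4 in bigenic tissue) and Homer1 (14.3 to 15.5 and 13.6 to 14.1), which were distinct in controls and overlapped in bigenic libraries. Grm7 followed at 8.16 to 10.6 and 6.54 to 8.33 FPKM. In bigenic tissue Grm8, Homer2, Grm2 and Grm5 overlapped their neighbours in the order and spanned 1.49 to 3.55 FPKM. In controls Grm8 (4.37 to 5.01 FPKM) overlapped Grm5 through control library 4 alone, where Grm5 was at 8.56 FPKM against 2.02 to 2.60 FPKM in the other 3. Grm5 overlapped Grm2 (2.46 to 3.97 FPKM), and Homer2 was lowest of these at 1.31 to 1.60 FPKM.

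Homer3 made up 87.8% to 91.3% of the summed Homer FPKM in the 8 libraries. The share of Homer2 was 1.39% ± 0.10 in bigenic and 0.955% ± 0.15 in control libraries (SD, n = 4), so the gene that rose is the least abundant scaffold. Of the summed FPKM of the 5 receptor genes in the set, Grm4 held 82.1% ± 3.98 in bigenic and 72.6% ± 5.15 in control libraries (SD, n = 4). Grm3 held 9.73% ± 2.04 and 14.8% ± 2.44 (SD, n = 4). The values of both shares overlapped between the groups. Shares depend on the lengths behind the FPKM, which were 5937 bases for Homer1 and 11149 for Homer2, against exon unions of 11976 and 12621 bases in GENCODE M21. With the GENCODE lengths Homer1 in controls was 5.70 times Homer2, in place of 10.2 times, and Grm4 was 3.17 times Grm3 in place of 5.01 times, so the receptor shares shift as well. The first 5 ranks in controls stayed the same, but Grm8 moved from rank 6 to 8. In bigenic tissue Grm3 and Homer1 exchanged ranks 3 and 4, and Grm8 moved from rank 6 to 9.

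**Figure D4:**
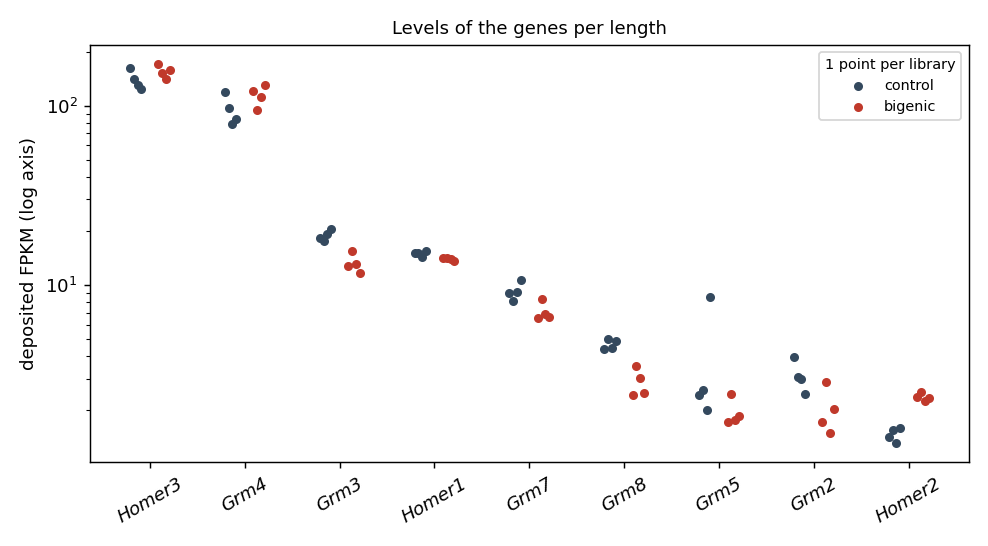
Deposited FPKM on a log axis for the 8 genes and Grm8, 1 point per library, controls at left and bigenic at right of each pair. Homer3 and Grm4 lie at 78.8 FPKM or more in every library, and the other 7 genes reach at most 20.5 FPKM.

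Genes with profiles close to those of the called members were listed by the same distance. Nearest to Homer2 were Chaf1a, a histone chaperone subunit (0.075), Rab37 (0.083) and Tcea2, a transcription elongation factor (0.095), and nearest to Grm3 were Dzip3 (0.044), Fam13b (0.055) and Rmdn1 (0.058). For Grm7 they were Mcph1 (0.059), Prickle1 (0.070) and Hspa12a (0.076). Each value is in log2 units over 8 libraries, and such a likeness describes only these libraries.

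Of the genes named in the lists that follow, Prkca, Itpr1, Siah1a, Dlgap1, Dlgap4, Shank1, Cacna1a, Kcnj9, Bdnf and Junb have exons that overlap a gene on the opposite strand, so the limit given for Homer2 applies to them.

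Of 18 genes tested in the Gq arm that serves group I receptors, 4 were higher and 1 lower. That is 27.8% called beside 44.3% of all genes, a difference that was not tested, with a median log2 fold change of 0.14. Gna11, a Gq-class alpha subunit, averaged 128 ± 7.09 CPM against 103.5 ± 8.82 CPM in controls (SD, n = 4), a log2 difference of 0.30 ± 0.08 (SE) with an adjusted p of 0.0093. Prkca, a protein kinase C gene, was called at 0.27 and Grk2, the receptor kinase listed as Adrbk1, at 0.27, while Rgs4 was lower at -0.58. Itpr1, the inositol trisphosphate receptor of Purkinje cells that Homer binds, was not called (0.10 ± 0.10, SE; adjusted p = 0.48). Without control libraries 2 and 3, 0 genes of the arm were called higher and 1 lower, against 10.4% and 11.4% of all genes in that fit, and Gna11 had an adjusted p of 0.10. In that fit Gna11, Prkca and Adrbk1 lost their call. Over the 20 alternatives Adrbk1 lost it in 8, Prkca in 6 (adjusted p up to 0.24, with Ttr as a covariate) and Gna11 in 2, and scaling by library size alone was among those for Adrbk1 (0.078) and Prkca (0.071). Rgs4 moved to -0.33 without control library 4 and was still called (adjusted p = 0.033), but not without bigenic library 3 (0.051) or 4 (0.053).

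Among postsynaptic partners of Homer, 8 of 19 genes were higher and 1 lower. That is 42.1% higher against 21.4% of all genes, with a median log2 fold change of 0.35 against -0.0041. The list was chosen with earlier results of these data known, and the difference from all genes was not tested. Grasp, now named Tamalin, a scaffold that links group I receptors to trafficking proteins, gave 3.31, 4.76, 5.66 and 4.17 CPM in the bigenic mice and 2.15, 2.36, 1.41 and 2.02 CPM in the controls. The groups did not overlap, with a log2 difference of 1.17 ± 0.21 (SE) and an adjusted p of 0.00105. Its call was lost with Ttr as a covariate (adjusted p = 0.0505). Dlgap3 and Dlgap4, which tie PSD-95 to Shank, were called at 0.90 and 0.48, and both calls were also lost with that covariate (adjusted p = 0.0548 and 0.0797). Siah1a, a ubiquitin ligase that binds group I receptors, was called at 0.89, with bigenic library 3 at 178 CPM and the other bigenic libraries at 91.8 to 123 CPM. Siah1a has a near-identical copy, so reads may be split. Shank1, Dlgap1 and Ncdn were also called higher, at 0.68, 0.35 and 0.44. Without control libraries 2 and 3, 4 genes were called higher, namely Grasp, Dlgap3, Dlgap4 and Siah1a, and 0 lower. Of all genes, 10.4% were higher and 11.4% lower there. Shank1, Dlgap1 and Ncdn lost their call in that fit. Leaving out control library 4 gave 5 higher and 1 lower, against 18.1% and 19.7% of all genes. With Ttr as a covariate 2 and 0 were called, against 8.36% and 11% of all genes. The list median was 0.42 in that fit, so the lost calls do not reflect a smaller median difference. Ttr itself differed between the groups, so the covariate and the group overlap.

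In the Gi/o arm of group II and III receptors, genes were called in both directions. Of 17 genes, 3 were higher and 2 lower (29.4% called, beside 44.3% of all genes). The shares by direction were 17.6% and 11.8%, beside 21.4% and 22.9% of all genes. The median was 0.03 and turned to -0.06 with scaling by library size alone. Gnai1, an inhibitory alpha subunit, averaged 351 ± 40.7 against 251 ± 7.24 CPM (SD, n = 4), a log2 difference of 0.48 ± 0.09 (SE) with an adjusted p of 0.00102. Cacna1a, the P/Q-type calcium channel that presynaptic receptors inhibit, was called at 0.57. Adcy8, a calcium-stimulated adenylyl cyclase, was lower at -0.55 and Kcnj9, a subunit of G protein-gated potassium channels, at -0.79. Without control libraries 2 and 3 Cacna1a had an adjusted p of 0.075 and Kcnj9 of 0.0504. In that fit 1 gene was called in each direction, against 10.4% higher and 11.4% lower of all genes. Kcnj9 also lost its call with Ttr as a covariate (adjusted p = 0.115), where Gnai1 (0.037) and Adcy8 (0.030) kept theirs.

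Activity-regulated genes, the class that includes the short Homer1 form, were split. Of 10 tested, 2 were higher and 4 lower (60% called, beside 44.3% of all genes), with a median of -0.50. Egr1 gave 8.79, 11.3, 7.15 and 6.15 CPM in the bigenic mice and 2.90, 2.20, 2.27 and 3.64 CPM in the controls, without overlap (log2 fold change 1.597 ± 0.22, SE; adjusted p = 0.00021), and Junb was called at 0.69. Arc, which marks recent synaptic activity, was lower at -0.71 and Bdnf at -0.71. Without control libraries 2 and 3, 1 gene was called in each direction, Egr1 and Arc, against 10.4% and 11.4% of all genes. In that fit Junb (adjusted p = 0.096) and Bdnf (0.077) were not called. With Ttr as a covariate Egr1 was called (adjusted p = 0.022), but Arc (0.064), Bdnf (0.0999) and Junb (0.24) were not.

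**Figure D5:**
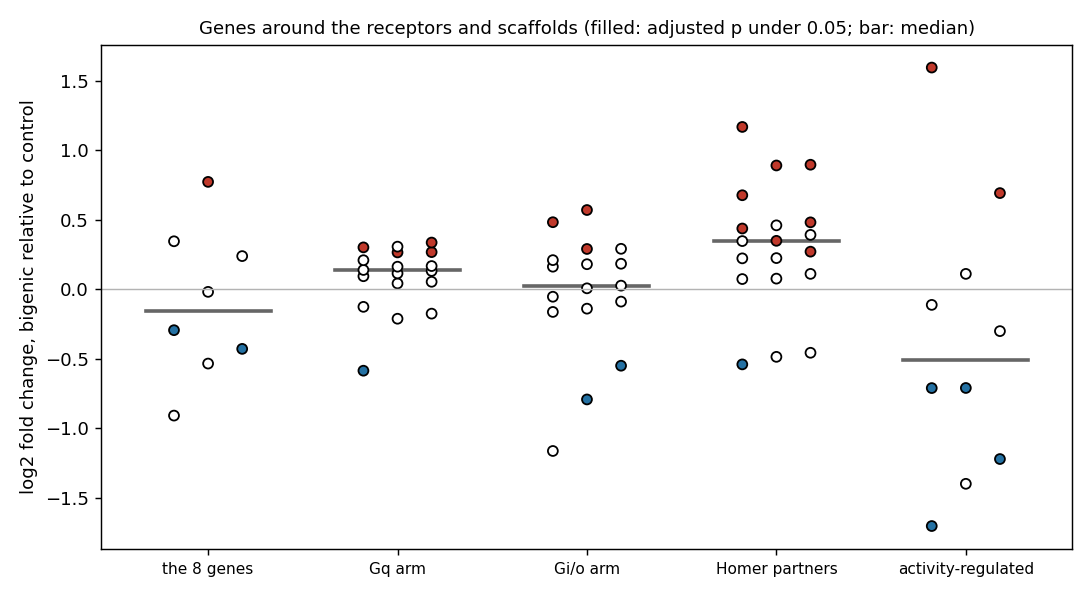
Log2 fold change of every tested gene in the 8-gene set and 4 lists around it, with a bar at the median and filled points for an adjusted p under 0.05. The Homer partners have the highest median at 0.35 and the activity-regulated genes the lowest at -0.50.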

How the data were processed

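The authors deposited read counts per gene symbol, whole numbers that were not normalised, and FPKM; STAR, HTSeq and mm10 are named in the submitters' processing notes, and versions and strand setting are not given in the sources used here. The deposited FPKM were checked to equal counts divided by 1 length per gene and by the total of the library. Labels disagree on the library kit, and labels per mouse make the replicates separate animals. Counts were fitted in R 4.3.3 with edgeR 4.0.16 (filterByExpr, TMM, robust quasi-likelihood F test, Benjamini-Hochberg over all genes); every adjusted p is from this test unless another tool is named, and intervals are 95%. Alternatives used DESeq2 1.42.0, limma 3.58.1 and FPKM with pseudocounts of 1 and 0.1. The fits were tested on simulated data. Named genes are the 8 members, the other tested receptors, the 4 smallest p per list and the 3 nearest profiles; some genes under this rule are not reported here, and further genes in the text were chosen after their values were seen. Members and lists were chosen with earlier results of these data known. Coordinates and exon overlaps are from GENCODE M21 (GRCm38).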

Additional observations from a re-analysis of the deposited data

Results flagged for a closer look

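A value was marked where the highest or lowest library of a group of 4 lay far from the other 3 by Dixon's criterion. Of 52 sets of 4 values examined, 3 were marked, and chance marks about 1 in 20. Grm5 in control library 4 was at 69.6 CPM, with the other controls at 16.99 to 21.6 CPM. Homer2 in bigenic library 2 was at 29.2 CPM, with the other bigenic libraries at 26.3 to 26.8 CPM, a narrow group whose distance from the controls is larger than this gap. Adrbk1 (Grk2) in bigenic library 1 was at 226 CPM, with the others at 220.1 to 221 CPM.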

How the results depend on the processing

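Homer2, Grm3 and Grm8 kept their direction and call in all 20 alternatives; Homer1 was called in none. With DESeq2, limma-voom or DESeq2 size factors 3 of the 8 genes were called higher in place of 1, and leaving out 1 library gave 1 to 3 higher and 1 to 3 lower. Over all genes, the fit without control libraries 2 and 3 called 1619 higher and 1775 lower, and that with Ttr as a covariate 1270 and 1665, against 3249 and 3485; with library size alone it was 2423 and 4373, and on log2(FPKM + 1) 2370 and 4353 (2227 and 4029 without a filter), on log2(FPKM + 0.1) 2377 and 4373.

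Replicate numbers are shared between the groups, but same-numbered libraries deviated together with correlations of 0.34, -0.04, 0.08 and 0.05 over 2000 genes, so the numbers were not taken to pair mice. With the replicate block 3 of the 8 genes were called higher and 3 lower. Grm2 and Grm5 had the widest errors; at 174 to 477 counts per library Grm2 is the member with the fewest reads.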

Other observations

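Activity-regulated genes that were not named above, chosen after their values were seen, varied among the control mice. Fos measured 4.70 CPM in control library 1 against 26.2, 26.4 and 43.1 CPM in the other controls and 3.94 to 18.5 CPM in bigenic mice, and it was not called (edgeR adjusted p = 0.14). Npas4 was at 0.215 CPM in control library 1 and at 1.59 to 2.19 CPM in the other controls, with 0.223 to 0.571 CPM in bigenic libraries, and it was called lower (log2 fold change -1.70, edgeR adjusted p = 0.0255). Nr4a1 was at 3.06 CPM in control library 1 and 5.65 to 8.82 CPM in the other controls, with 1.31 to 3.92 CPM in bigenic libraries, and it was called lower (-1.22, edgeR adjusted p = 0.0135). Neither Npas4 nor Nr4a1 was called without control libraries 2 and 3. Homer1 in control library 1, at 86.6 CPM, did not stand apart. Elfn1, which encodes a synaptic protein that recruits group III receptors, was at 2.12 CPM in control library 4 and at 0.269 to 0.676 CPM in the other 7 libraries.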
